A study of Mus musculus with 18 samples.

Results

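PU.1, SPIB, the C/EBP factors, GFI1 and the Runx factors are encoded by the 10 genes *Spi1*, *Spib*, *Cebpa*, *Cebpb*, *Cebpd*, *Cebpe*, *Gfi1*, *Runx1*, *Runx2* and *Runx3*, which were taken by symbol from the expression tables. Each of the 10 was present in all 3 tables, among 19919 genes listed in at least 1 of them, and all 10 passed the filter on low values in each table. RNA was sequenced from progenitors sorted from the bone marrow of C57BL/6 mice aged 6 to 8 weeks, with 3 libraries for each of 2 genotypes in 3 populations. The WT mice were *Trim33* fl/fl and the KO mice were *Trim33* fl/fl Cre-ERT2, a line in which the Cre recombinase acts in all tissues once tamoxifen is given. Mice of both genotypes had received tamoxifen at 2 mg per day for 5 days and were used 7 days later, so the treatment was shared and the Cre was carried by the KO mice only. Multipotent progenitors (MPPs) were sorted as Lin-Sca-1+CD117+CD34+FLT3+ cells, CD115- common DC progenitors (CD115- CDPs) as Lin-CD11c-FLT3+CD117int cells without CD115 or CD127, and common lymphoid progenitors (CLPs) as cells positive for CD127, FLT3, Sca-1 and CD117. Whether a library came from 1 mouse or from pooled mice is not stated in the sources used here.

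These factors bind DNA and direct the choice between blood cell lineages. PU.1 is an ETS family activator needed for myeloid cells, dendritic cells and B cells, and its dose shapes which of these arise. SPIB is its close relative, recognises much the same GGAA-centred sites, and is known for B cells and for plasmacytoid dendritic cells (pDCs). C/EBPα opens the path to granulocytes and monocytes, C/EBPβ acts in emergency granulopoiesis and macrophages, C/EBPδ is an inducible myeloid factor, and C/EBPε drives the late granule genes of neutrophils. GFI1 is a zinc finger repressor that favours neutrophils over monocytes. RUNX1 is needed for blood stem cells to arise and for lymphoid development, RUNX2, best known from bone, also acts in pDCs, and RUNX3 acts in cytotoxic T cells and in some dendritic cells. All 3 Runx proteins bind DNA with the partner CBFβ.

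Values are FPKM (fragments per kilobase, with depth divided out), a scale per length on which genes can be compared within a library. *Trim33*, the deleted gene, was 10.4, 10.1 and 8.78 FPKM in the WT MPPs against 9.71, 11.7 and 4.80 FPKM in the libraries labelled KO. In CD115- CDPs it was 14.3, 15.2 and 8.27 FPKM in WT and 9.64, 8.28 and 4.03 FPKM in KO libraries, and in CLPs 12.4, 7.01 and 8.86 FPKM against 7.52, 5.6 and 7.66 FPKM. The genotypes overlapped in all 3 populations. In CD115- CDPs and CLPs *Trim33* was lower in the KO library of each same-numbered pair. On the log2(FPKM + 1) scale the CD115- CDP difference was -0.74 (limma adjusted p = 0.528). It passed with the replicate number as a block (limma adjusted p = 0.0258). The CLP difference of -0.37 did not pass (limma adjusted p = 0.255, and 0.0727 with the block). In MPPs replicates 1 and 2 labelled KO were at or above the lower WT values. There the gene-level value, which also covers exons that Cre leaves in place, did not separate the labels. Directions in MPPs are therefore those of the libraries labelled KO. The steps between low FPKM values put the depth at about 19.3 to 21.4 M reads per library. Of the sorting genes, *Kit* was highest in WT MPPs (71.6 to 74.8 FPKM, against at most 19.4 in the other WT libraries) and *Il7r*, which encodes CD127, in WT CLPs (32.6 to 63.0 FPKM). *Csf1r*, which encodes CD115, was present as RNA in the CD115- CDPs at 39.1 to 137 FPKM in WT and 9.24 to 37.2 FPKM in KO libraries. *Itgax*, which encodes CD11c, was at 15.7 to 23.3 FPKM in WT and 4.27 to 5.37 FPKM in KO CD115- CDPs. In CLPs it was at 54.8 to 69.7 and 5.36 to 7.47 FPKM. *Kit* and *Ly6a* were lower in the MPPs labelled KO (limma adjusted p = 0.0434 and 0.0425). In KO CLPs *Kit* and *Cd34* were higher (limma adjusted p = 0.0124 and 0.00611). *Flt3* passed in no population. In these bulk samples, fewer cells of a type and less RNA per cell cannot be told apart.

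Promoter windows in the RefSeq table (GRCm38.p6) were found for 7 of the 10 genes, in 10 windows. Those of *Spib* and *Runx2*, the genes with the largest differences between genotypes, and of *Cebpa* and *Gfi1*, which passed the test in MPPs, are shown 5′ to 3′ up to the first annotated base of the gene. Capitals mark a match to the C/EBP half-palindrome TTGCNNAA, searched on both strands. The *Spib* stretch is on the minus strand at chr7:44532088-44532321, *Runx2* on the minus strand at chr17:44814798-44814877, *Cebpa* on the plus strand at chr7:35119043-35119292, and *Gfi1* on the minus strand at chr5:107725806-107726055.
Spib: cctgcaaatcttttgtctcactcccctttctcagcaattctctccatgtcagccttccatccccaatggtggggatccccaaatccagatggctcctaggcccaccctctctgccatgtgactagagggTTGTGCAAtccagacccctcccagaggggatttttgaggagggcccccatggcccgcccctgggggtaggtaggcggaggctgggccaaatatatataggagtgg
Runx2: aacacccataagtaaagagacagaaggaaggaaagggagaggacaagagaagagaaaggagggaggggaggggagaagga
Cebpa: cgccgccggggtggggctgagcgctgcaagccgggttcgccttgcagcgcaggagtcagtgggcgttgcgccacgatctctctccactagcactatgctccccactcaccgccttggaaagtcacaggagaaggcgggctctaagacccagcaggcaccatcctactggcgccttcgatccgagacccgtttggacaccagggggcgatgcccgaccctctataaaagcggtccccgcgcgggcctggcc
Gfi1: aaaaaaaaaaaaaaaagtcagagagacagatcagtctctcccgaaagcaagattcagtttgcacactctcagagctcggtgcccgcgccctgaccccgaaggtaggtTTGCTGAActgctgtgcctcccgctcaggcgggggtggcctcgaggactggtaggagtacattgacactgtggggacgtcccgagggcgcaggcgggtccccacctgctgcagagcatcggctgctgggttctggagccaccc

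In the 250 bases before the start site used by the table, TTGCNNAA was matched in *Spib* (bases -121 to -114, on the minus strand of the window) and *Gfi1* (bases -143 to -136), and in *Runx2* at bases -48 to -41, downstream of the stretch shown. It was present in 9.56% of all 32851 windows of this length. The RUNX motif TGTGGT, present in 14% of windows, was matched once in *Runx2* (bases -80 to -75, also downstream of the stretch shown) and at 2 places in the first *Runx3* window. GAGGAA, a PU.1-type ETS motif found in 23.3% of windows, was matched in 1 *Runx1* window and in none of the 4 genes shown. GGAAGT (19.7% of windows), the C/EBP palindrome TTGCGCAA (0.164%), AAATCACT for GFI1 (0.831%) and GAAANNGAA for IRF factors (7.13%) were matched in none of the 10 windows. The E box CANNTG, present in 66.2% of windows, was matched in windows of *Spib*, *Runx1*, *Runx2*, *Runx3* and *Gfi1*, and at bases -78 to -73 of *Runx2* it overlapped the RUNX match. A match is a description of letters and was not tested as a binding site.

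In WT libraries the 10 genes were expressed at very different levels, and their order changed between populations. *Spi1* was the highest of them in MPPs (139 ± 1.35 FPKM, SD, n = 3) and CD115- CDPs (187 ± 54.4 FPKM). In CLPs, *Runx2* (132 ± 46.7 FPKM) and *Spib* (105 ± 13.1 FPKM) stood above *Spi1* (68.6 ± 8.11 FPKM). The lowest of the 10 was *Spib* in MPPs (1.43 ± 0.306 FPKM) and *Cebpe* in CD115- CDPs (1.71 ± 1.21 FPKM) and CLPs (1.71 ± 0.805 FPKM). The 3 tables were made separately, so levels set across them are described and were not tested, and population and table cannot be told apart. Rescaling each library to the same total kept the highest of the 6 group means for 9 of the 10 genes and the whole order for 3.

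**Figure D1:**
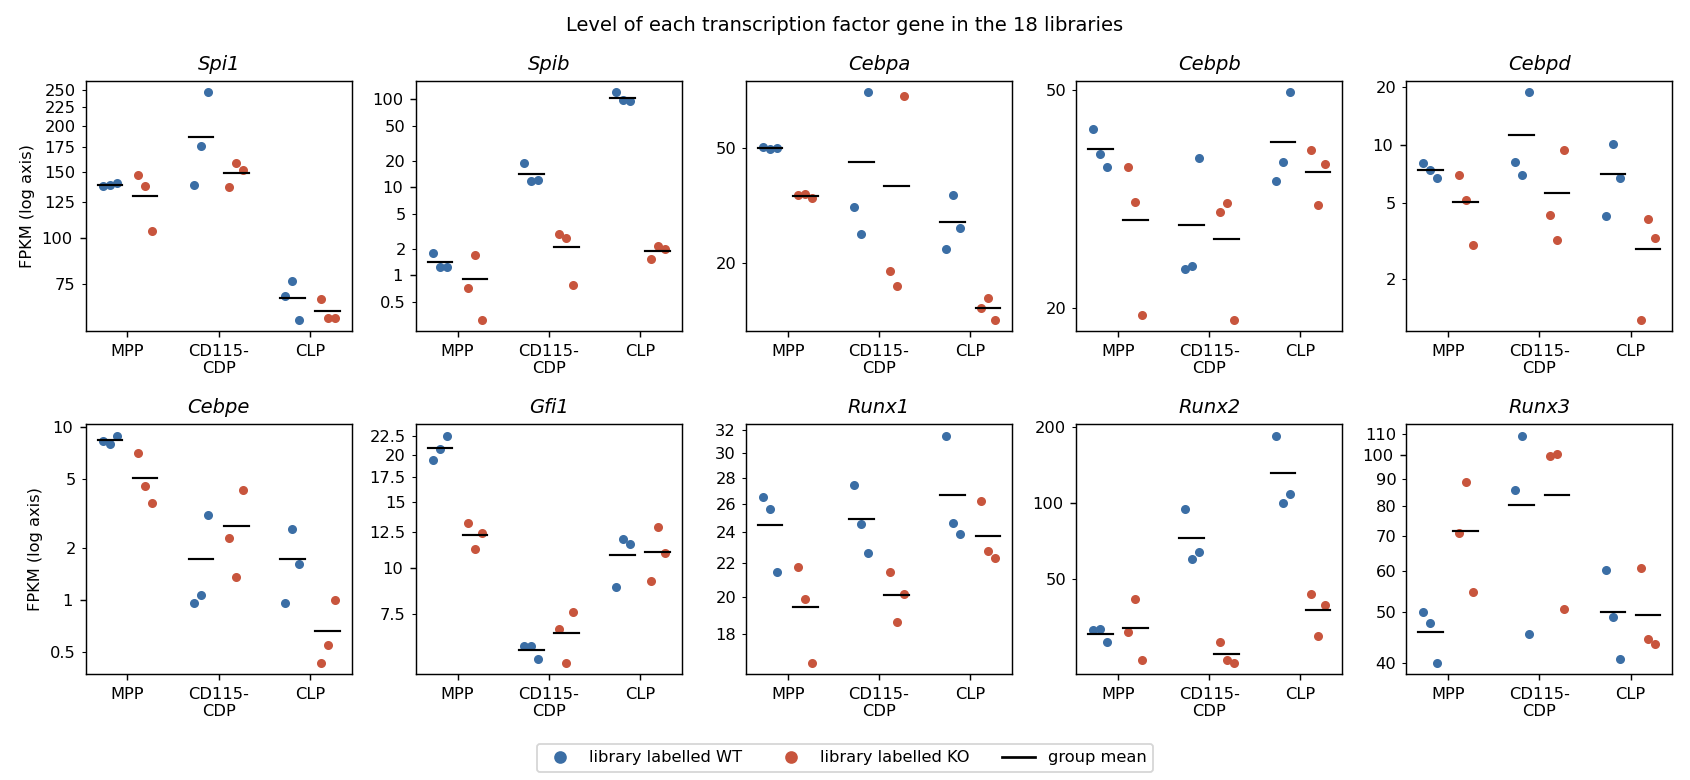
FPKM of each of the 10 genes (log axis, own scale in each panel) in the 3 WT (blue) and 3 KO (red) libraries of MPPs, CD115- CDPs and CLPs, with black bars for group means. *Spib* and *Runx2* were high in WT CLPs and intermediate in WT CD115- CDPs, with all KO libraries of those populations below all WT libraries.

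*Spib* (Entrez 272382, chromosome 7, 44525995 to 44532087) showed the largest difference between genotypes of the 10 genes. In CLPs it was 119.96, 99.0 and 95.8 FPKM in the WT and 1.51, 2.17 and 1.97 FPKM in the KO libraries. Every KO library was far below every WT library, and the WT mean was 55.7 times the KO mean. On the log2(FPKM + 1) scale used for all differences below, it fell by 5.20 (standard error 0.133, limma adjusted p = 5.37e-07). The KO values were above the floor of the measurement, since by the transcript length and depth they corresponded to about 81.8, 119.9 and 104 reads, against 5364 to 6358 reads in WT.

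The WT CD115- CDPs had 19.0, 11.9 and 12.04 FPKM of *Spib*, and the KO libraries 2.90, 2.66 and 0.780 FPKM. Again the groups did not overlap, and the WT mean was 6.77 times the KO mean. The difference of -2.35 (standard error 0.359) missed the threshold in the fit without replicate numbers (limma adjusted p = 0.134) and passed it with the replicate number as a block (standard error 0.207, limma adjusted p = 0.00528). Same-numbered WT and KO libraries deviated together in CD115- CDPs and CLPs. In MPPs this held for numbers 2 and 3 only. Blocked values are given where the block moved a factor gene across the threshold, including *Cebpa* and *Gfi1* in MPPs. In CD115- CDPs the other factor genes did not pass with the block. Their limma adjusted p with it was 0.101 for *Cebpa*, 0.114 for *Runx1*, 0.1325 for *Cebpe* and 0.219 for *Spi1*. It was 0.575 for *Gfi1*, 0.603 for *Runx3* and 0.857 for *Cebpb*. In CLPs *Spi1*, *Cebpb*, *Gfi1*, *Runx1* and *Runx3* passed neither with nor without the block. In MPPs the WT *Spib* values of 1.78, 1.25 and 1.25 FPKM and the KO values of 0.720, 1.68 and 0.310 FPKM overlapped. The difference of -0.41 (standard error 0.264, limma adjusted p = 0.351) did not pass there. *Spib* in KO CLPs (1.88 ± 0.338 FPKM) thus lay in the range of the WT MPPs (1.25 to 1.78 FPKM) and above it.

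*Spi1* (Entrez 20375, chromosome 2, 91082374 to 91115759), which encodes PU.1, passed the test in no population. It was 137, 139 and 139.96 FPKM in WT MPPs against 148, 137 and 104 FPKM in the libraries labelled KO, of which only replicate 3 stood below all WT libraries. In CLPs it was 69.5, 76.2 and 60.1 FPKM in WT and 68.5, 61.0 and 60.9 FPKM in KO libraries, with full overlap. The WT CD115- CDPs were spread from 139 to 246 FPKM around KO values of 137 to 158 FPKM. Its MPP difference was -0.11 (standard error 0.135) and its CLP difference also -0.11 (standard error 0.114), with limma adjusted p-values of 0.602 and 0.579. For CD115- CDPs the value was -0.29 (standard error 0.217), at a limma adjusted p of 0.701. In MPPs the sign turned under median-ratio scaling, to 0.0087, and without KO replicate 3, to 0.039. *Spi1* and *Spib* therefore made up very different shares of their sum. *Spib* was 56.5% to 63.3% of the summed FPKM of the 2 genes in WT CLPs and 2.16% to 3.44% in KO CLPs, and 4.67% to 12.04% against 0.511% to 2.08% in CD115- CDPs.

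*Runx2* (Entrez 12393, chromosome 17, 44495987 to 44814797) was the other gene called in CLPs. Its WT CLP values were 185, 100.5 and 109 FPKM, and the KO values were 43.7, 29.7 and 39.3 FPKM. The lowest WT library was well above the highest KO library, and the WT mean was 3.50 times the KO mean. The fall of 1.74 (standard error 0.235, limma adjusted p = 0.00183) was called. In CD115- CDPs *Runx2* was 95.2, 59.9 and 63.9 FPKM in WT and 28.1, 24.0 and 23.2 FPKM in KO libraries, also without overlap. There the difference of -1.48 (standard error 0.209) had a limma adjusted p = 0.111, which became 0.00364 with the replicate block (standard error 0.114). The MPP values were 31.3, 31.5 and 28.0 FPKM in WT and 30.9, 41.6 and 23.8 FPKM in KO libraries, with the KO libraries on both sides of the WT ones. The MPP difference was 0.05 (standard error 0.197, limma adjusted p = 0.885).

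*Runx3* (Entrez 12399, chromosome 4, 135120645 to 135177990) went the other way in MPPs. It was 50.1, 47.6 and 39.99 FPKM in the WT and 71.1, 89.0 and 54.8 FPKM in the KO libraries, so that every library labelled KO was above every WT library. The difference of 0.61 (standard error 0.186) did not pass (limma adjusted p = 0.122). Without KO replicate 3 it was 0.79 and passed (limma adjusted p = 0.00446). In CD115- CDPs *Runx3* followed the replicate number more than the genotype, at 86.0, 109 and 45.5 FPKM in WT and 99.9, 100.6 and 50.8 FPKM in KO libraries. In CLPs it was 60.2, 49.0 and 40.8 FPKM in WT and 60.7, 44.4 and 43.5 FPKM in KO libraries. The differences there were 0.09 (standard error 0.399, limma adjusted p = 0.973) and -0.01 (standard error 0.174, limma adjusted p = 0.971).

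*Runx1* (Entrez 12394, chromosome 16, 92601466 to 92826074) was the steadiest of the 10 genes, with an SD of 0.21 on the log2 scale over the 18 libraries. It ranged from 21.5 to 26.5 FPKM in WT MPPs and from 16.6 to 21.8 FPKM in those labelled KO, from 22.6 to 27.4 FPKM in WT and 18.6 to 21.5 FPKM in KO CD115- CDPs, and from 23.9 to 31.5 FPKM in WT and 22.3 to 26.2 FPKM in KO CLPs. The KO libraries were all below the WT ones in CD115- CDPs only. None of its 3 differences, which lay between -0.32 and -0.15, passed (limma adjusted p = 0.214, 0.54 and 0.475).

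Within each library the 3 Runx genes were also set against their own sum, a comparison chosen after the values were seen and given as a description. In WT CLPs *Runx2* made up 57.7% to 66.9% of the summed Runx FPKM, and in KO CLPs 30.7% to 37.4%. *Runx3* was 21.7% to 28.2% of the sum in WT CLPs and 41.4% to 46.5% in KO CLPs. In MPPs, where *Runx2* itself did not differ, *Runx3* was 44.7% to 46.4% of the sum in WT and 57.5% to 59.1% in libraries labelled KO. The ratio of *Runx3* to *Runx2* was higher in all KO than in all WT libraries of each population. It was 1.51 ± 0.0857 in WT and 2.25 ± 0.0944 in KO MPPs, 1.15 ± 0.593 and 3.31 ± 1.02 in CD115- CDPs, and 0.396 ± 0.0835 and 1.33 ± 0.2 in CLPs (SD, n = 3). An exact two-sided permutation test of 3 against 3 libraries gave p = 0.1 in each population, the smallest value it can give.

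**Figure D2:**
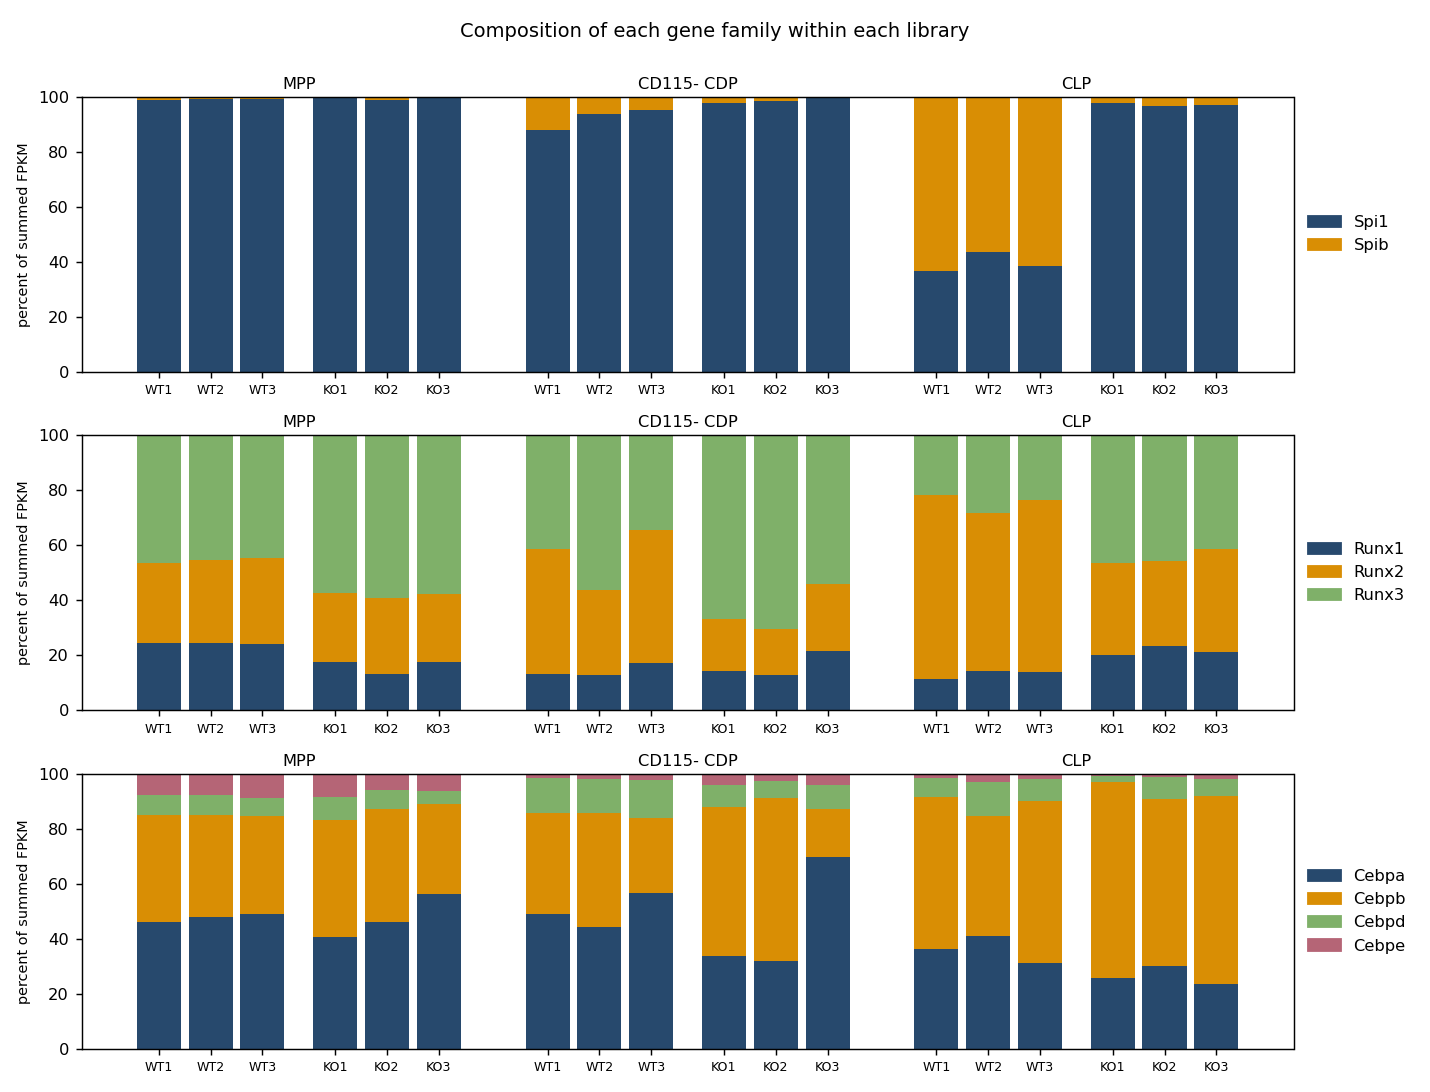
Percent of the summed FPKM of *Spi1* and *Spib* (top), of the 3 Runx genes (middle) and of the 4 C/EBP genes (bottom) that each gene made up in each of the 18 libraries. *Spib* took 56.5% to 63.3% of its pair in WT CLPs and at most 3.44% in KO CLPs, and the *Runx2* share was lower in each KO library of CLPs than in each WT library.

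*Cebpa* (Entrez 12606, chromosome 7, 35119293 to 35121928), which encodes C/EBPα, was lower in KO libraries in 2 populations. In MPPs it was 50.2, 49.6 and 50.0 FPKM in WT and 34.3, 34.7 and 33.6 FPKM in KO libraries, a narrow spread within each genotype and no overlap. The fall of 0.53 (standard error 0.0771, limma adjusted p = 0.0204) passed the test but was under the minimum of 1 required for a call. In CLPs the WT values were 22.3, 34.3 and 26.4 FPKM and the KO values 14.0, 15.2 and 12.7 FPKM. All 3 KO libraries were below the lowest WT library, and *Cebpa* fell by 0.92 (standard error 0.156, limma adjusted p = 0.00603).

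The MPP result for *Cebpa* passed or missed the threshold depending on which library was left out. With the replicate block it missed the threshold (limma adjusted p = 0.0511). Its adjusted p in limma was 0.159, 0.156 and 0.12 without WT replicate 1, 2 or 3, and 0.0734 and 0.0623 without KO replicate 1 or 2. Without KO replicate 3 it passed (limma adjusted p = 0.00153), and the difference stayed between -0.54 and -0.52 over all leave-one-out fits. Median-ratio scaling moved the median of all genes in MPPs from -0.11 to -0.01, and *Cebpa* was then at -0.42 (limma adjusted p = 0.0609).

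In CD115- CDPs *Cebpa* was 31.2 and 25.2 FPKM in WT replicates 1 and 2 and 77.9 FPKM in replicate 3, against 18.7, 16.6 and 75.4 FPKM in the KO libraries. Both replicate 3 libraries stood far above the other 4, and the genotypes overlapped. The difference was -0.44 (standard error 0.665, limma adjusted p = 0.877). Without both replicate 3 libraries, a choice made after seeing the data, it was -0.64 (limma adjusted p = 0.0866), and without WT replicate 3 alone it turned to 0.04.

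*Cebpd* (Entrez 12609, chromosome 16, 15887286 to 15889545) was lower in the KO library of every same-numbered pair in CLPs, CD115- CDPs and MPPs. In CLPs it was 4.24, 10.1 and 6.68 FPKM in WT and 1.23, 4.09 and 3.29 FPKM in KO libraries, with the highest KO value just under the lowest WT value. The difference of -1.07 (standard error 0.348) had a limma adjusted p = 0.0777, and 0.000899 with the replicate block (standard error 0.126). In CD115- CDPs the values were 8.14, 6.94 and 18.7 FPKM in WT and 4.33, 3.21 and 9.37 FPKM in KO libraries. The groups overlapped through KO replicate 3, while the KO to WT ratio within the pairs was 0.532, 0.463 and 0.501. The difference of -0.87 (standard error 0.464, limma adjusted p = 0.566) passed with the block (standard error 0.114, limma adjusted p = 0.0154). In MPPs the values were 8.08, 7.42 and 6.72 FPKM in WT and 6.96, 5.14 and 3.01 FPKM in KO libraries, a difference of -0.53 that did not pass (limma adjusted p = 0.244).

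*Cebpe* (Entrez 110794, chromosome 14, 54710363 to 54712174), the granulocytic member, was far higher in MPPs than in the other populations among WT libraries, while KO MPPs and KO CD115- CDPs overlapped. The WT MPPs had 8.22, 7.97 and 8.87 FPKM and those labelled KO 7.06, 4.53 and 3.62 FPKM, without overlap, and the difference was -0.66 (standard error 0.214, limma adjusted p = 0.136). Without KO replicate 3 it was -0.49 and passed (limma adjusted p = 0.0475). In CLPs it was 0.960, 2.56 and 1.61 FPKM in WT and 0.430, 0.550 and 1.0 FPKM in KO libraries, about 10.1 to 60.9 reads a library, with KO replicate 3 just above WT replicate 1. The difference of -0.68 (standard error 0.228) had a limma adjusted p = 0.0846, and 0.0333 with the block. In CD115- CDPs *Cebpe* was 0.960, 1.07 and 3.1 FPKM in WT and 2.27, 1.35 and 4.32 FPKM in KO libraries, and was the only C/EBP gene with a positive difference, 0.43 (standard error 0.406, limma adjusted p = 0.77).

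*Cebpb* (Entrez 12608, chromosome 2, 167688915 to 167690432) passed in no population. It ranged from 36.1 to 42.3 FPKM in WT and 19.4 to 36.1 FPKM in KO MPPs, from 23.6 to 37.5 FPKM in WT and 19.0 to 31.1 FPKM in KO CD115- CDPs, and from 34.1 to 49.4 FPKM in WT and 30.8 to 38.7 FPKM in KO CLPs. KO replicate 3 was the lowest library of the 6 in MPPs and in CD115- CDPs. The differences were -0.46, -0.08 and -0.17 in that order (limma adjusted p = 0.25, 0.955 and 0.519), and the middle one turned to 0.35 without both replicate 3 libraries. In KO CLPs *Cebpb* took 60.9% to 71.2% of the summed C/EBP FPKM, against 44.0% to 58.8% in WT CLPs, while *Cebpa* took 23.7% to 29.97% against 31.4% to 40.9%.

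*Gfi1* (Entrez 14581, chromosome 5, 107716655 to 107725805) was lower in the libraries labelled KO in MPPs. It was 19.5, 20.8 and 22.6 FPKM in WT and 13.2, 11.2 and 12.4 FPKM in KO MPPs, so that the groups stood well apart. The fall of 0.73 (standard error 0.113, limma adjusted p = 0.026) passed but was not called. With the replicate block it missed the threshold (limma adjusted p = 0.0543). Without WT replicate 1, 2 or 3 the adjusted p of *Gfi1* in limma was 0.141, 0.16 and 0.142, and without KO replicate 1 or 2 it was 0.0677 and 0.0748. Without KO replicate 3 *Gfi1* passed (limma adjusted p = 0.00244), and the difference stayed between -0.78 and -0.67 over the 6 fits. In CD115- CDPs *Gfi1* was 6.16, 6.16 and 5.71 FPKM in WT and 6.87, 5.56 and 7.62 FPKM in KO libraries, and in CLPs 8.86, 11.98 and 11.6 FPKM against 9.21, 12.9 and 10.9 FPKM. Both overlapped fully, with differences of 0.12 (standard error 0.176, limma adjusted p = 0.87) and 0.02 (standard error 0.156, limma adjusted p = 0.94).

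**Figure D3:**
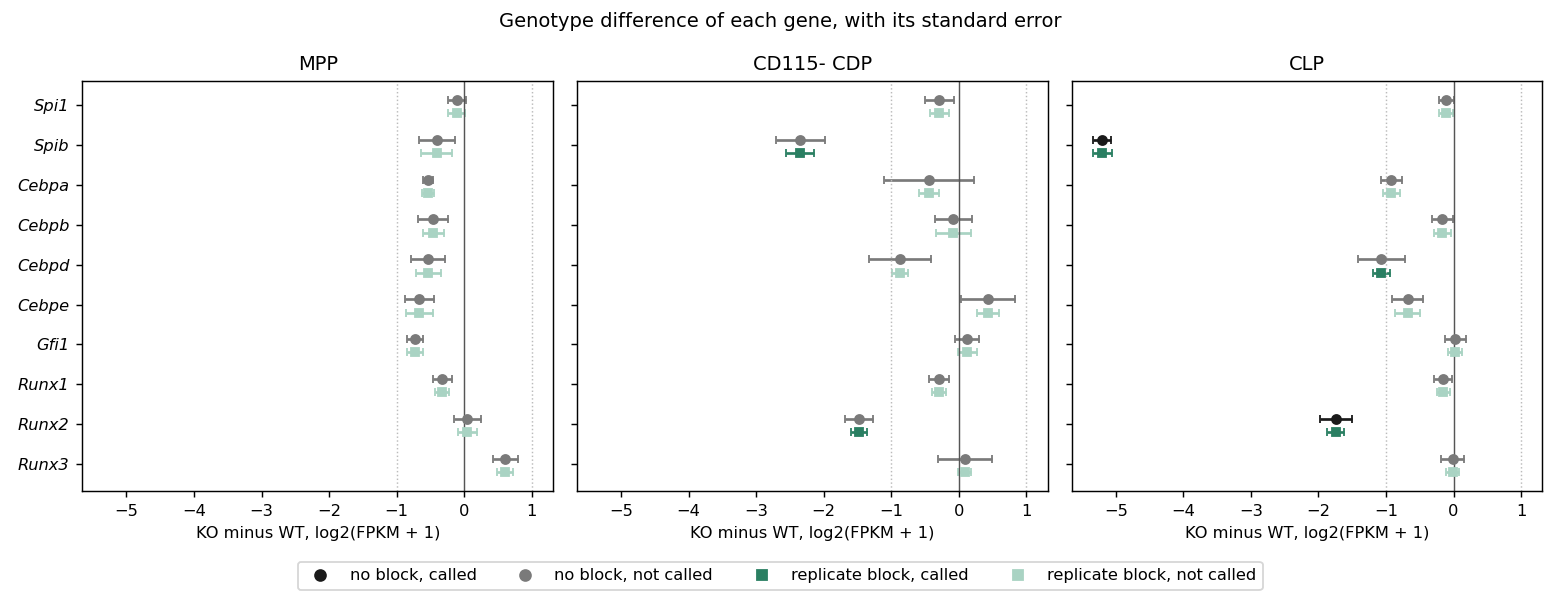
KO minus WT difference of each gene on the log2(FPKM + 1) scale with its limma standard error, without (circles) and with (squares) the replicate block, where a call needs an adjusted p of at most 0.05 and a difference beyond the dotted lines at 1 or -1. *Spib* reached -5.20 and *Runx2* -1.74 in CLPs, and the other 8 genes lay between -1.07 and 0.61 in all 3 populations.

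Counted over the 10 genes, 2 were called lower in CLPs (*Spib* and *Runx2*), where 2.84% of all 12339 genes tested were called lower. With the replicate block 3 were called lower (*Cebpd* joined them), against 3.11% of all genes. By adjusted p alone, 3 were lower in CLPs (8.92% of all genes), and 5 with the block (12.5%). Of the 10, 4 had all KO below all WT libraries in CLPs (18.6% of all genes). In CD115- CDPs limma called 0 of the 10, of which 2 had an unadjusted p under 0.05, and 0.0654% of the 12229 genes tested were called lower. With the block 2 were called lower (1.46% of all genes) and 3 were lower by adjusted p alone (5.56%), and 3 of the 10 had all KO below all WT libraries (10.6%).

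In MPPs limma also called 0 of the 10, with 4 at an unadjusted p under 0.05, while 1.32% of the 12372 genes tested were called lower. The 2 that passed by adjusted p alone, *Cebpa* and *Gfi1*, were both lower (3.52% of all genes), as were the 3 with all KO below all WT libraries (*Cebpa*, *Cebpe* and *Gfi1*), where 23.3% of all genes had that pattern. With the replicate block 0 of the 10 passed, while 264 of the 12372 genes tested were lower by adjusted p alone. Without the block, the genes past the threshold in MPPs split into 436 lower and 39 higher, or 184 and 57 after quantile normalization. No member was called or passed in the higher direction in any population, with or without the block. Higher calls were also rare among all genes tested. Without the block, CLPs had 83 of 12339, MPPs 20 of 12372 and CD115- CDPs 5 of 12229. By adjusted p alone, the largest share was 1041 of 12339 genes, for CLPs with the block. The count of 0 among 10 genes therefore does not set these genes apart. Over the 10 genes the median MPP difference was -0.43, the CD115- CDP median -0.29 and the CLP median -0.42, beside medians over all genes tested of -0.11, -0.07 and 0.01.

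Whether the genotype difference was the same in the 3 populations was tested in 1 fit over the 18 libraries. The differences were not the same for *Spib* (limma adjusted p = 1.7e-05) and *Runx2* (limma adjusted p = 0.0162), 2 of the 10 genes, where 2.45% of the 12421 genes tested passed. For *Spib* the CLP difference was lower than the MPP difference by 4.79 (standard error 0.416) and lower than the CD115- CDP difference by 2.85. The WT means of *Spib* were only 1.43 FPKM in MPPs and 14.3 FPKM in CD115- CDPs. From these levels even a full loss could not reach the CLP difference of -5.20 on this scale. For *Spib* the test therefore cannot separate a different effect of genotype from a different WT level. The *Runx2* difference in CLPs was lower than in MPPs by 1.79 (standard error 0.343) and lower than in CD115- CDPs by only 0.27 (standard error 0.343). *Gfi1* just missed the threshold (limma adjusted p = 0.056), its CLP difference being higher than its MPP difference by 0.75 (standard error 0.204). The other 7 genes had adjusted p-values of 0.311 to 0.857, which does not show that their differences were alike. Without a single MPP library (WT replicate 1 or 3, KO replicate 1 or 2) the limma adjusted p of *Runx2* was 0.0507, 0.0625, 0.0504 and 0.0618, with the CLP value less the MPP value at -1.81, -1.74, -1.80 and -1.59. Without MPP KO replicate 3 that value was -1.98 (limma adjusted p = 0.00766).

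Markers of other cells moved with some of these results. In CD115- CDPs the 6 neutrophil markers (*Elane*, *Mpo*, *Ltf*, *Camp*, *Ngp* and *S100a8*) summed to 2795 FPKM in WT replicate 3 and 2826 FPKM in KO replicate 3, against 437 to 693 FPKM in the other 4 libraries. The same 2 libraries had the highest *Cebpa*, *Cebpd* and *Cebpe* and the lowest *Runx3*. The 5 monocyte markers summed to 1315 FPKM in WT replicate 3 and to at most 286 FPKM in the other 5 libraries. Their sum was also lower in the KO library of each same-numbered pair, at 79.98 against 286 FPKM, 66.4 against 188 FPKM and 226 against 1315 FPKM, and 4 of the 5 were called lower with the block (0 without it, 3 at an unadjusted p under 0.05 in limma). *Spib*, *Runx2* and *Cebpd* were likewise lower in the KO library of each pair in CD115- CDPs. Across libraries only *Cebpd* was also highest in WT replicate 3, while *Spib* and *Runx2* were highest in WT replicate 1. The part of the monocyte markers in those results was not tested. *Spib* and *Runx2* were lower in KO than in WT CD115- CDPs also without both replicate 3 libraries, at -2.09 (limma adjusted p = 0.00505) and -1.51 (limma adjusted p = 0.0144).

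**Figure D4:**
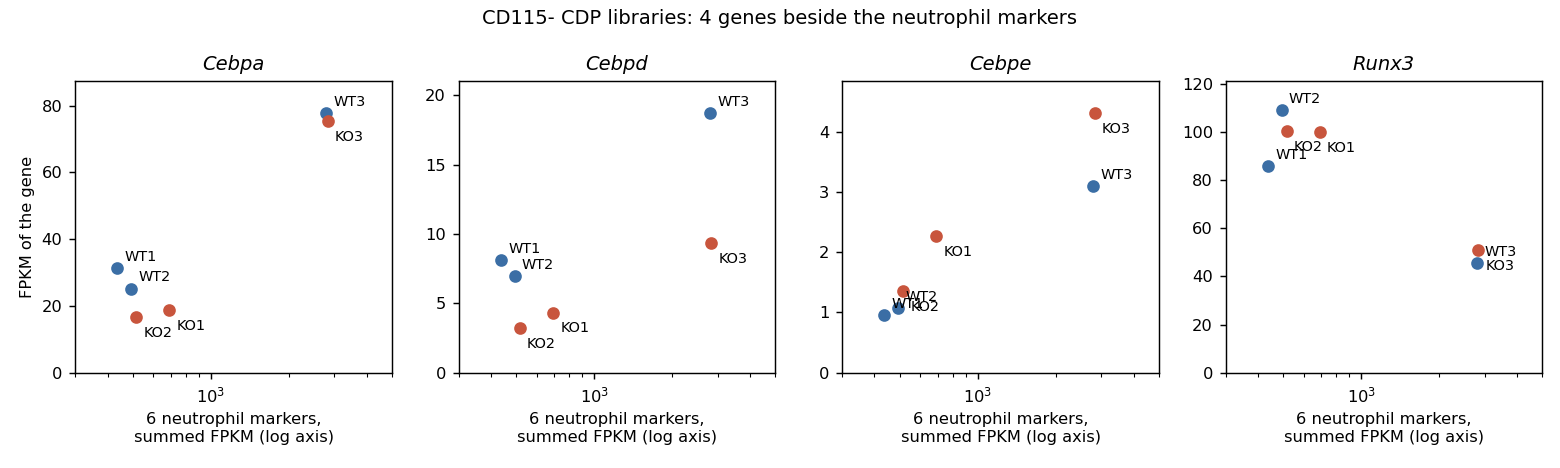
FPKM of *Cebpa*, *Cebpd*, *Cebpe* and *Runx3* in the 6 CD115- CDP libraries (vertical axes from 0) against the summed FPKM of 6 neutrophil markers (log axis), with WT in blue and KO in red. The replicate 3 libraries of both genotypes sat apart at 2795 and 2826 FPKM of neutrophil markers.

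In MPPs 6 of 6 erythroid markers were called lower, with sums of 267 to 297 FPKM in WT and 1.36 to 10.1 FPKM in KO libraries, and 3 of 6 neutrophil markers, with sums of 2326 to 2400 and 1001 to 1638 FPKM. Of the 5 basophil and mast cell markers 4 were called lower, and of the 5 monocyte markers 3. Of the 2 megakaryocyte markers tested 1 was called lower, with sums of 15.8 to 17.2 FPKM in WT and 4.12 to 8.12 FPKM in KO libraries. Of the 6 B lineage markers limma called 0 (5 at an unadjusted p under 0.05), with sums of 41.7 to 48.2 and 15.1 to 29.6 FPKM. These lists moved with *Cebpa* and *Gfi1*, and their part in those results was not tested. In CLPs all 6 pDC markers were called lower, with sums of 1479 to 1868 FPKM in WT and 336 to 362 FPKM in KO libraries, and *Klk1* was listed at 0 in the 3 KO libraries. In CD115- CDPs 4 of the 5 pDC markers tested were called lower with the block (1 without it), with sums of 425 to 777 and 161 to 406 FPKM. They moved with *Spib* and *Runx2*, and their part in those results was not tested. Other marker lists also held genes that were called lower in KO CLPs. Of the 5 monocyte markers 3 were called lower there, with sums of 260 to 301 FPKM in WT and 45.3 to 69 FPKM in KO libraries, and of the 6 neutrophil markers 0 without and 5 with the block (5 at an unadjusted p under 0.05 in limma), with sums of 277 to 653 and 186 to 290 FPKM. Of the 4 conventional DC markers tested 3 were called lower in CLPs, and 1 was higher by adjusted p alone. Of the 4 erythroid markers tested 2 were called lower, with sums of 27.7 to 45.8 FPKM in WT and 2.05 to 6.37 FPKM in KO libraries. These lists moved with *Cebpa*, *Cebpd*, *Spib* and *Runx2* in CLPs, and their part in those results was not tested. Of the 6 B lineage markers limma called 0 in CLPs, and 1, *Ebf1*, had an unadjusted p under 0.05 and was higher by adjusted p alone (0.62), with sums of 213 to 579 FPKM in WT and 187 to 394 FPKM in KO libraries. The T and innate lymphoid markers summed to at most 2.42 FPKM in CLPs.

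Only *Spib* varied enough over the 18 libraries (SD of at least 1 on the log2 scale, here 2.15) for its nearest patterns to be listed. After each gene was centred on its own mean, the 5 nearest of 12420 genes by root mean square difference were *Cd300c* (0.572), *Cd7* (0.684), *Mycl* (0.772), *Lrrc16a* (0.792) and *Siglech* (0.798), a pDC surface receptor. Like *Spib*, each of the 5 had its highest mean in WT CLPs and its second highest in WT CD115- CDPs. The 5 were picked for likeness to *Spib* over these same libraries, so this order is not a separate result. The mean of *Cd300c* in CLPs was 41.4 FPKM for WT and 0.843 FPKM for KO libraries, and that of *Cd7* 141 and 3.50 FPKM.

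A list of pDC-related genes, put together as partners and targets of SPIB and RUNX2, held 17 genes, all of them in the fits. Whether each of them depends on SPIB or RUNX2 in these cells was not tested. In CLPs 12 of the 17 were called lower and 0 higher, with a median difference of -1.26. This count is not separate from those above. *Siglech*, *Ccr9*, *Ly6d* and *Cd300c* are also among the pDC markers, and *Cd300c* and *Siglech* among the genes nearest to *Spib*. *Cd300c* (-4.52), *Siglech* (-4.11) and *Pacsin1* (-3.57) differed most, followed by *Irf8* (-2.73), a transcription factor known for its role in the development of type 1 conventional DCs. *Itgb7*, an integrin subunit, was at -2.69 and *Tlr9*, a receptor for DNA, at -2.59. In CD115- CDPs 2 of the 17 were called lower, and 9 with the block, with a median of -1.02. In MPPs 1 of the 17, *Ccr2*, was called lower, and the median was -0.24. Of the partners named for pDC identity, *Tcf4*, which encodes the E protein E2-2, fell by 1.04 in CLPs (standard error 0.189, limma adjusted p = 0.00811).

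**Figure D5:**
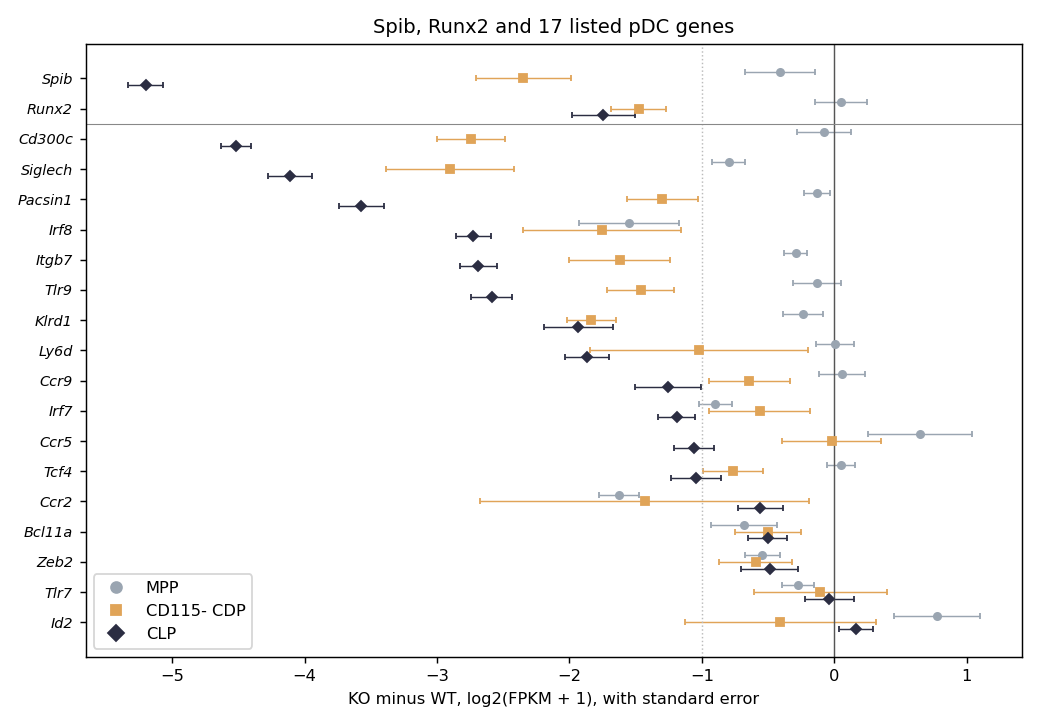
KO minus WT difference with its standard error for *Spib*, *Runx2* and the 17 listed pDC genes, in MPPs (grey circles), CD115- CDPs (orange squares) and CLPs (dark diamonds), ordered by the CLP value. *Cd300c* and *Siglech* lay beyond -4 in CLPs, as *Spib* did.

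Of 15 listed PU.1 target genes, 13 to 15 were tested, and they moved in both directions while *Spi1* itself passed nowhere. In CLPs 4 were called lower and 1 higher. *Cybb*, a subunit of the phagocyte oxidase, fell by 4.22, *Cd22* by 2.40, *Csf1r* by 1.65 and *Ly86* by 1.24. The gene called higher was *Fcgr2b*, the inhibitory Fc receptor, at 137, 171 and 183 FPKM in KO against 21.5, 22.4 and 20.8 FPKM in WT CLPs, a rise of 2.86 (standard error 0.122, limma adjusted p = 3.96e-06). By adjusted p alone, 6 of the list were lower and 3 higher in CLPs. Beside *Fcgr2b*, the higher ones were *Bcl2l11* (0.95, limma adjusted p = 0.00629) and *Btk* (0.30, limma adjusted p = 0.0484). *Fcgr2b* was also called higher in MPPs (3.18), where *Csf1r*, *Ly86*, *Cybb* and *Egr2* were called lower. By adjusted p alone, 6 were lower and 1 higher in MPPs. In CD115- CDPs limma called 0 of the 15 (5 at an unadjusted p under 0.05), and with the block 4 lower and 1 higher.

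Of 15 listed C/EBP and granule target genes, 14 were in the tables. In MPPs 6 were called lower and 0 higher, among them *Lyz2* (lysozyme, -1.60), *Ltf* (lactoferrin, -1.56), *Mmp9* (-1.35), *Lcn2* (-1.32), *Ngp* (-1.31) and *Camp* (-1.29), with a median of -1.29. In CLPs 0 were called without the block (9 at an unadjusted p under 0.05) and 8 lower with it. In CD115- CDPs 0 were called with or without the block, 1 gene had an unadjusted p under 0.05, and the sum of the list ran from 767 to 5569 FPKM in WT libraries. Some of these genes are also among the neutrophil markers above.

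No relative or partner of the factors on the other lists was called. None of the 15 ETS relatives was called by limma in any population, with 4, 2 and 6 of those tested at an unadjusted p under 0.05 in MPPs, CD115- CDPs and CLPs. By adjusted p alone, 3 of them were higher and 1 lower in CLPs, where *Etv6* (0.47), *Elk3* (0.55) and *Erg* were the higher ones. *Erg*, a stem cell ETS factor, rose by 0.77 (standard error 0.0926, limma adjusted p = 0.00101) and *Elf4* fell by 0.47 (limma adjusted p = 0.0492). Of 9 core binding factor genes none was called, with 2, 2 and 4 at an unadjusted p under 0.05. *Cbfb*, the partner of all Runx proteins, averaged 79.5 ± 7.54 FPKM over the WT and 76.8 ± 4.44 FPKM over the KO CLPs (SD, n = 3), and the corepressor genes *Tle2* in MPPs and *Tle1* in CLPs were lower by adjusted p alone. None of the 6 C/EBP relatives and TRIB regulators or of the 5 GFI1-related genes was called, with 0, 0 and 1 at an unadjusted p under 0.05 in each list, and *Cebpz* (0.52) was higher in CLPs by adjusted p alone. In MPPs *Trib1*, which encodes a pseudokinase that targets C/EBPα for degradation, was 41.8, 43.2 and 28.8 FPKM in WT and 74.0, 80.4 and 27.7 FPKM in KO libraries, so that KO replicates 1 and 2 stood above and replicate 3 below the WT libraries (limma adjusted p = 0.406).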

How the data were processed

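The authors sequenced single-end RNA libraries, and per the labels and the study's methods cleaned reads were aligned with HISAT2 2.0.4 to mm10 and with Bowtie2 2.2.5 to transcripts, and expression was estimated with RSEM 1.2.12. The deposited tables, 1 per population, hold FPKM values normalized by the authors for length and depth. The authors' own tests took read counts, which were not used here. From the FPKM values, log2(FPKM + 1) was fitted in limma 3.58.1 (R 4.3.3, eBayes with trend) within each population, keeping genes that averaged 0.5 FPKM or more over the 6 libraries, with Benjamini-Hochberg adjustment over all of them. Genes are called at an adjusted p of 0.05 or less and a difference of 1 or more in either direction. The fits were tested on simulated data. The 10 genes, the gene lists and the tests were chosen with earlier results of these data known. Named genes are the 10 genes, *Trim33*, up to 6 called genes of each list by absolute difference, and the 5 nearest genes of any member with an SD of at least 1. *Ccr2*, *Tcf4*, *Erg*, *Elf4*, *Etv6*, *Elk3*, *Cebpz*, *Ebf1*, *Cbfb*, *Tle1*, *Tle2*, *Trib1*, *Itgax*, *Ly6a*, *Cd34*, *Flt3*, *Bcl2l11* and *Btk* were named after their values were seen. Depth was estimated from steps in low FPKM values, of which 66.8% to 72.5% per library fell within 0.15 reads of a whole number. Same-numbered WT and KO libraries deviated together in CD115- CDPs (correlations of 0.437, 0.671 and 0.79 over genes) and CLPs (0.4, 0.329 and 0.131), taking the numbers from the titles; in CD115- CDPs replicates 1 and 2 also correlated across numbers (0.381 and 0.663), and in CLPs WT replicate 3 correlated more with KO replicate 2 (0.234) than with KO replicate 3. In MPPs numbers 2 and 3 deviated together (0.482 and 0.472) and number 1 did not (0.038). The samples are labelled as biological repeats, and p-values measure the spread between them. Promoters came from RefSeq.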

Additional observations from a re-analysis of the deposited data

Results flagged for a closer look

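The genotype difference of *Spib* differed between populations in the test over all 18 libraries (limma adjusted p = 1.7e-05), the value in CLPs less that in MPPs being -4.79 (standard error 0.416). With a WT mean of 1.43 FPKM in MPPs, *Spib* had no room there for a fall as large as in CLPs. For *Runx2* the same contrast was -1.79 (standard error 0.343, limma adjusted p = 0.0162).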

How the results depend on the processing

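For the 10 genes within populations, 299 of the refits under alternatives kept direction and side of the threshold, 13 lost the threshold, 11 gained it and 17 turned sign, all 17 for differences that had not passed; the cause was not tested. *Spib*, *Runx2* and *Cebpa* in CLPs passed under all 11 alternatives, with ranges of -5.73 to -5.10, -1.91 to -1.47 and -1.06 to -0.76. The turned values were *Spi1* in MPPs (0.0087 with median-ratio scaling, -0.21 to 0.039 leaving out 1 library), *Runx3* in CLPs (0.031 with quantile normalization, -0.16 to 0.13 leaving out 1 library), *Cebpb* in CD115- CDPs (-0.20 to 0.14 leaving out 1 library, 0.35 without replicate 3 of both genotypes, chosen after seeing the data), *Cebpa* (-1.12 to 0.038) and *Runx3* (-0.27 to 0.41) in CD115- CDPs, *Gfi1* in CLPs (-0.10 to 0.13) and *Runx2* in MPPs (-0.15 to 0.24), each leaving out 1 library. Beside the 10 genes, *Trim33* in MPPs turned too (-0.45 to 0.12 leaving out 1 library).

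The MPP calls were 163 lower and 20 higher. A pseudocount of 0.1 gave 245 lower, quantile normalization 89 lower, and no minimum fold 436 lower and 39 higher. Leaving out 1 library gave 51 to 548 lower and 12 to 366 higher, the highest without KO replicate 3. In CD115- CDPs, 8 were called lower and 5 higher: the block gave 178 and 46, no expression filter 1 and 2, leaving out 1 library 0 to 5 and 0 to 7, and leaving out replicate 3 of both genotypes 143 and 60. In CLPs, 351 were called lower and 83 higher: no minimum fold gave 1101 and 667, a pseudocount of 0.1 gave 148 higher, and leaving out 1 library 331 to 390 and 64 to 96. The interaction passed for 304 genes, for 1077 with the replicate block, 189 with a pseudocount of 0.1, 545 with no expression filter and 155 to 670 leaving out 1 library. Rescaling to a common total kept the order of the group means for 3 of 10 genes.

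In MPPs the same-numbered libraries deviated together for numbers 2 and 3 (correlations of 0.482 and 0.472) but not for number 1 (0.038). With the replicate block 163 MPP genes were called lower, and *Cebpa* and *Gfi1* missed the threshold (limma adjusted p = 0.0511 and 0.0543). In the interaction with the block, *Gfi1* (0.0206), *Runx3* (0.0476) and *Cebpe* (0.0489) passed by limma adjusted p. The block changed no other call of the 10 genes than those given above. Depth limits *Spib* in MPPs and *Cebpe* in CLPs most, at 17.4 to 102.6 and 10.1 to 60.9 reads.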
